A study of Mus musculus with 18 samples.

Results

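A list of 38 genes that build, desaturate, move and store cholesterol and fatty acids, or that control those genes, was followed in hippocampal cultures of *Fibcd1* wild-type (WT) and knockout (KO) mice grown on chondroitin sulphate proteoglycans (CSPGs). The rule that picks the rows uses gene names and no measured value, although the list was drawn up with earlier results of these data known, and 37 of the 38 had a row in the deposited table of 12012 genes. The member without a row, *Nr1h3*, encodes the sterol-sensing nuclear receptor LXR alpha. The table listed all 14 sterol synthesis enzymes, all 5 regulators of the SREBP pathway, all 11 fatty acid enzymes and 7 of the 8 transport, storage and export genes. FIBCD1 is a membrane protein that binds chondroitin sulphate, and the comparison asks whether these genes differ in level with its loss in cells that meet CSPGs.

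The series labels 18 poly-A RNA-seq libraries, with 5 from WT and 4 from KO cultures without CSPGs, and 5 from WT and 4 from KO cultures on CSPGs. The table has values for 8, replicates A to D of each genotype on CSPGs (WT CSPG and KO CSPG), so both groups share the coating, and the other 10 libraries were not used here. The WT libraries carry the genotype wt and the KO libraries fibcd1 -/-, and per the study's methods the mice carried the Fibcd1tm1Lex allele on a C57BL/6J background. Cells came from embryonic hippocampus shortly before birth, were plated in serum-containing Neurobasal medium with B27 supplement, and were collected within days of plating. The labels call the sample neurons, but no cell type was sorted, and litter and sex are not given for single libraries. Reads over the genes of the table numbered 10099564 to 11174615 in WT CSPG and 10541445 to 11647202 in KO CSPG. *Fibcd1* itself had 52, 65, 62 and 179 reads in WT CSPG replicates A to D and 1, 1, 7 and 5 in KO CSPG, so each library went with its label. Neuron markers were all in the table (10 of 10) and astrocyte markers nearly so (9 of 10, *S100b* without a row), and 6 of 10 microglial markers were present.

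Cholesterol is made from acetyl-CoA through the mevalonate pathway and then through squalene and lanosterol, and the brain makes its own because plasma lipoproteins hardly cross the blood-brain barrier. The transcription factors SREBP1 and SREBP2, encoded by *Srebf1* and *Srebf2*, are held in the endoplasmic reticulum by SCAP and the INSIG proteins when sterols are plentiful, and are released to switch on sterol and fatty acid genes when sterols are scarce. The LXR receptors switch on export pumps such as ABCA1 and ABCG1 when oxysterols rise. Astrocytes and oligodendrocytes are the main producers of brain cholesterol, while developing neurons also make their own.

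The promoters of 3 genes near the threshold of the test below, *Sc5d*, *Acly* and *Fasn*, and of the member with the highest level, *Hmgcs1*, are printed here because SREBP and its partner NF-Y are known to act on promoters of this pathway. Each window is the RefSeq promoter of build GRCm38.p6 from 250 bases before to 50 bases after the start of the gene, printed 5′ to 3′ on the strand of the gene. Capitals mark matches on either strand to TCACNCCAC, a sterol response element, to CACGTG, an E-box, and to CCAAT, the NF-Y motif. The *Hmgcs1* window is chr13:119690101-119690400 on the plus strand, that of *Sc5d* is chr9:42264251-42264550 on the minus strand, that of *Acly* is chr11:100527951-100528250 on the minus strand, and that of *Fasn* is chr11:120824498-120824797 on the minus strand.
Hmgcs1: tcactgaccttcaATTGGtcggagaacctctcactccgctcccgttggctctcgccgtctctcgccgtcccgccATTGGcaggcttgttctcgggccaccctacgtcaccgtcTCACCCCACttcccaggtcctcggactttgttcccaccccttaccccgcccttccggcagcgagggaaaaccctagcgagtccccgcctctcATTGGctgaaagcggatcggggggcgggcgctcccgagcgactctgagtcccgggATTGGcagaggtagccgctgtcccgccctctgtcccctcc
Sc5d: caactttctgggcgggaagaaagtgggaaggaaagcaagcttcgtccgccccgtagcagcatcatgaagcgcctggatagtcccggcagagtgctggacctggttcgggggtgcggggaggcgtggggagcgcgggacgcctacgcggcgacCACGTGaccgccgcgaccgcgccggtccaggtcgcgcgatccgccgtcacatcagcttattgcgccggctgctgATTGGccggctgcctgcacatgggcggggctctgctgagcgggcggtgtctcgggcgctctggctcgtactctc
Acly: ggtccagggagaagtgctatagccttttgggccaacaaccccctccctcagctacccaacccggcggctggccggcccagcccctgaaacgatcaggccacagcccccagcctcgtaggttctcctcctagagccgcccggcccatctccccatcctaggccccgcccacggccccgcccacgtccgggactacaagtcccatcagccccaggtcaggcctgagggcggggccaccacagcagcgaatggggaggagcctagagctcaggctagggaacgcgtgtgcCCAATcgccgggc
Fasn: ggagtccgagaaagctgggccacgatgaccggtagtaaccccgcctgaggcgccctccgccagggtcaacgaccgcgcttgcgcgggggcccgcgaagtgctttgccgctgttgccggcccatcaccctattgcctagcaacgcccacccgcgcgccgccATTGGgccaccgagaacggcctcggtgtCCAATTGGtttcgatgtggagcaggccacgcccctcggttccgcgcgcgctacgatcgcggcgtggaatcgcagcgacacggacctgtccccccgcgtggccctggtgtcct

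These letters occurred once as TCACNCCAC in *Hmgcs1*, beside 4 CCAAT matches. *Sc5d* had 1 CACGTG and 1 CCAAT, *Acly* had 1 CCAAT, and *Fasn* had 3 CCAAT matches, of which a pair overlaps on opposite strands. RefSeq windows were at hand for 28 of the 37 members, 35 windows in all, and no window was listed for *Scd1*, *Scd2*, *Npc1*, *Sqle*, *Fads1*, *Stard4*, *Abcg1*, *Fdps* and *Fdft1*. CCAAT stood in 62.9% of the members' windows and in 37.4% of all 32851 windows, and CACGTG in 20% against 7.15%. The GC-rich letters GGGCGG, bound by SP1 and not marked in capitals, stood in 71.4% against 35.7%, and TCACNCCAC in 2.86%, which is *Hmgcs1* alone, against 1.24%. All windows were counted without regard to expression, and some genes have more than 1 window, so these shares are not matched for level. A match of letters is a description of the window and not a binding site.

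Values are normalised read counts, reads per gene after scaling by each library's size factor, and levels of different genes are compared as normalised counts per kb of the gene length given in the table. On that scale the members were well expressed, with a median of 245.6 per kb against 95.2 per kb for all genes tested. *Hmgcs1* was highest at 3908 per kb, followed by *Scd2* at 2982, *Fads2* at 1916, *Fads1* at 911.8, *Npc2* at 847.8, *Cyp51* at 751.4, *Srebf2* at 745.4 and *Acly* at 645.7. The lowest levels belonged to *Acss2* with 33.4 per kb, *Abcg1* with 35.7, *Fdps* with 37.3 and *Acaca* with 40.2. By role, the median level was 434.1 per kb for fatty acid enzymes, 290.4 for sterol enzymes, 137.5 for SREBP regulators and 111.8 for transport genes. The order at both ends rests on the lengths used, since the length in the table equalled the exon bases of GENCODE M21 for 26 of the 37 members. With the GENCODE lengths *Scd2* (2976 per kb) stood above *Hmgcs1* (2750 per kb), *Fads2* had 876.8 per kb and *Npc2* 508.4, and *Abcg1* (19.9 per kb) was lowest, below *Acss2*.

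**Figure D1:**
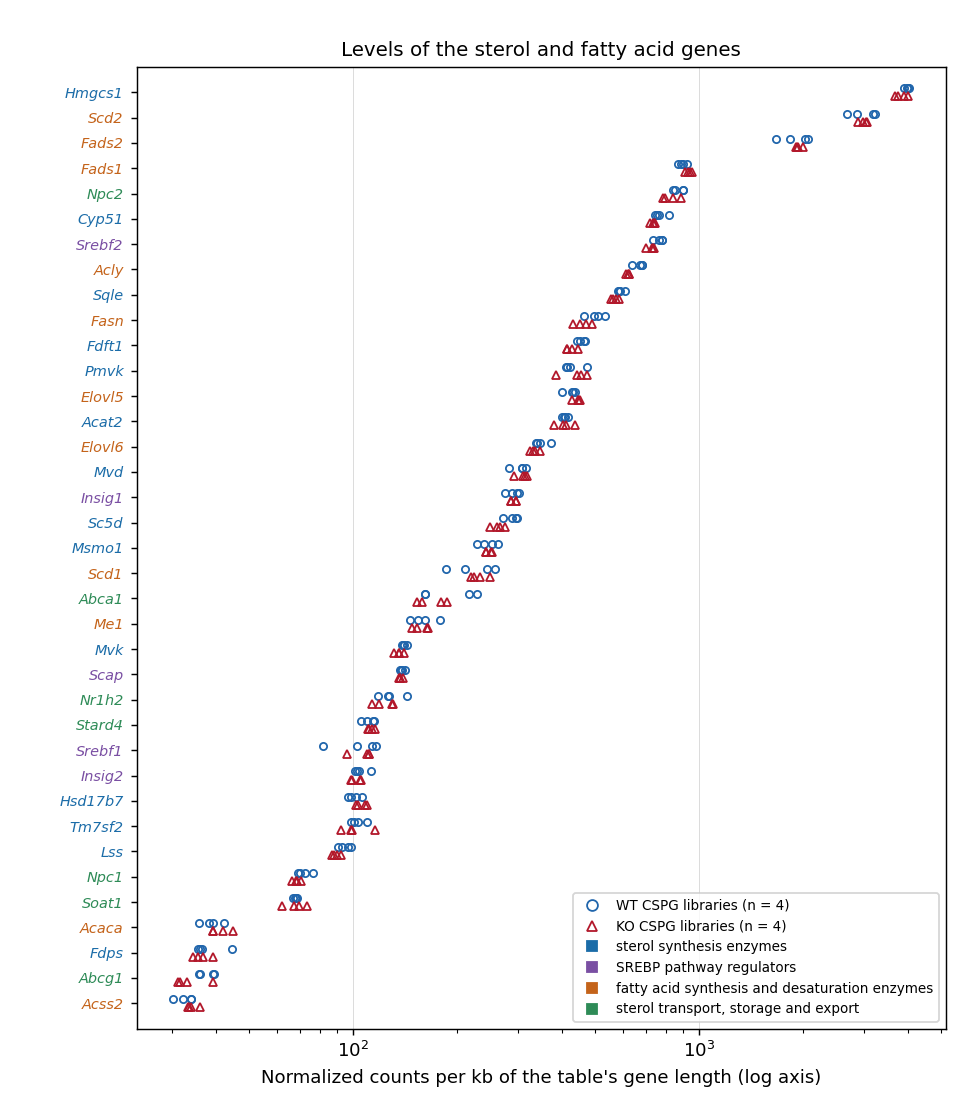
Normalised counts per kb of gene length on a log axis for the 37 members in the table, sorted by level; circles are the 4 WT CSPG libraries, triangles the 4 KO CSPG libraries, and label colours give the role. By the lengths in the table, levels run from 33.4 per kb for *Acss2* to 3908 per kb for *Hmgcs1*, and the symbols of both genotypes overlie each other for nearly every gene.

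No member passed the test between genotypes (0 of 37; limma on log2(value + 1), Benjamini-Hochberg adjusted p under 0.05 over the whole table), where 2.83% of all genes counted passed. The log2 fold changes, positive where KO CSPG was higher, lay between -0.17 for *Abca1* and 0.09 for *Acaca*, with 15 above 0, 22 below 0 and a median of -0.03. Over all genes tested the median was 0.00016, and 49.9% were below 0. At an unadjusted p under 0.05 stood 8 members, against 16.2% of all genes. Of these 7 were lower in KO CSPG (*Fdft1*, *Cyp51*, *Sc5d*, *Srebf2*, *Acly*, *Fasn* and *Npc2*), where the background was 8.7%, and 1 was higher (*Fads1*), where the background was 7.5%. The values of both genotypes did not overlap for 2 members, *Cyp51* and *Acly*, both lower in KO CSPG, against 5.2% of all genes in that direction. No member had all KO CSPG values above all WT CSPG values, against 4.04% of all genes.

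The 95% interval of the log2 fold change lay within 0.2 of 0 for 29 of the 37 members and within 0.4 for 36. The exception was *Abca1*, the sterol export pump, with an interval from -0.53 to 0.19. Within genotypes the members' SD on the log2 scale had a median of 0.063 against 0.083 over all genes tested. It ran from 0.019 for *Scap* to 0.21 for *Abca1*. The members' median level was higher (245.6 against 95.2 per kb), so these medians are not matched for level. The coefficient of variation among WT CSPG libraries had a median of 4.50% and reached 18.4%, where counting alone gives a median of 3.16%. In WT CSPG 10 of the 37 members exceeded their counting error more than 2 times, and 10 lay below it. Among KO CSPG libraries the median was 3.55%, the highest 11.3% and the median from counting 3.08%. There 6 members exceeded their counting error more than 2 times, and 15 lay below it.

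**Figure D2:**
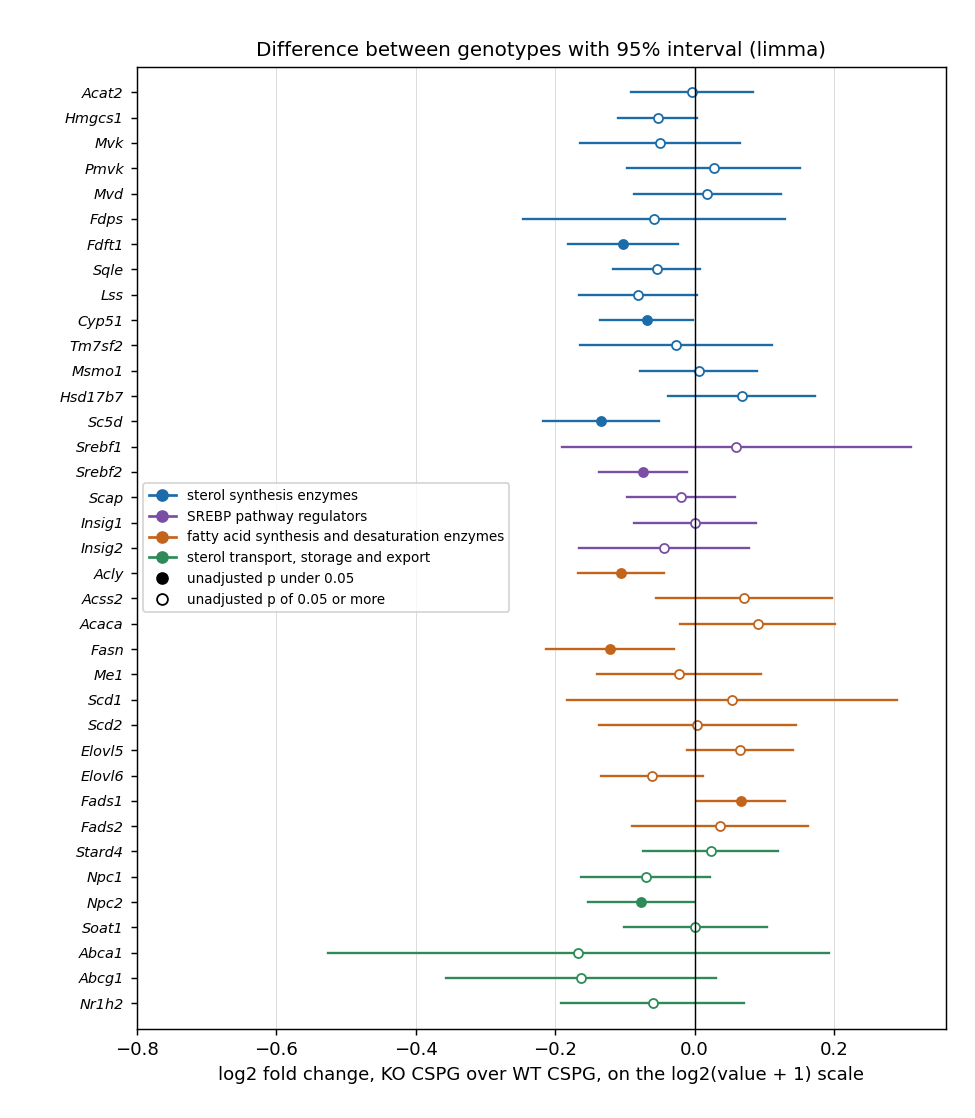
Difference between genotypes for each member as log2 fold change, negative where KO CSPG was lower (point), with its 95% interval from limma (line), coloured by role; filled points have an unadjusted p under 0.05. Points lie between -0.17 and 0.09, most intervals cross 0, and the widest belong to *Abca1*, *Srebf1* and *Scd1*.

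None of the 14 sterol synthesis enzymes passed the test, while 10 of their log2 fold changes were below 0 and the median was -0.05. At an unadjusted p under 0.05 stood 3, all lower in KO CSPG, where 8.7% of all genes counted stood. Their summed level was 28261, 28014, 29299 and 28536 normalised counts in WT CSPG replicates A to D and 27829, 26594, 27294 and 28454 in KO CSPG. KO CSPG replicates A, B and C lay below all WT CSPG sums, and replicate D lay among them. *Hmgcs1*, which condenses acetyl groups to HMG-CoA at the entry to the mevalonate pathway, had 12857, 12609, 13046 and 12935 normalised counts in WT CSPG and 12654, 11862, 12128 and 12977 in KO CSPG. Its groups overlapped, and the log2 fold change was -0.05 ± 0.03 (SE; limma, adjusted p = 0.351). Log2 fold changes of the other early steps were also near 0, with larger SEs, from 0.04 for *Acat2* to 0.09 for *Fdps*. *Acat2*, the cytosolic thiolase, *Mvk* and *Pmvk*, which phosphorylate mevalonate, *Mvd*, which decarboxylates it, and *Fdps*, which makes farnesyl diphosphate, had log2 fold changes of -0.004, -0.05, 0.03, 0.02 and -0.06.

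*Fdft1*, squalene synthase and the first step committed to sterols, had 1293, 1329, 1337 and 1269 normalised counts in WT CSPG and 1182, 1187, 1228 and 1272 in KO CSPG. KO CSPG replicate D fell within the range of WT CSPG and the other KO CSPG libraries lay below it, for a log2 fold change of -0.10 ± 0.04 (SE; limma, adjusted p = 0.156). In GENCODE M21 18.3% of the exon bases of *Fdft1* lie opposite those of *Ctsb*. The strand setting of the authors' counting is not given in the sources used here, and reads of both genes may share this value. The length in the table, 2860 bases, is less than the 4227 exon bases of GENCODE, so it is not known whether the overlapped bases were counted. *Sqle*, squalene epoxidase, and *Lss*, which closes the ring to lanosterol, had log2 fold changes of -0.05 and -0.08. *Cyp51*, the lanosterol 14-alpha-demethylase, had 3379, 3279, 3607 and 3325 normalised counts in WT CSPG against 3277, 3178, 3235 and 3259 in KO CSPG. All KO CSPG values lay below all WT CSPG values, though the nearest pair was only a few counts apart, and the log2 fold change was -0.07 ± 0.03 (SE; limma, adjusted p = 0.286).

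Among the later enzymes, *Tm7sf2*, a sterol reductase, *Msmo1*, the C4-methylsterol oxidase, and *Hsd17b7*, a 3-ketosteroid reductase, had log2 fold changes of -0.03, 0.01 and 0.07. *Sc5d*, the lathosterol 5-desaturase, came closest to the threshold among the sterol enzymes. Its normalised counts were 1319, 1440, 1399 and 1449 in WT CSPG and 1268, 1337, 1210 and 1294 in KO CSPG. Only KO CSPG replicate B, above WT CSPG replicate A, made the groups overlap. The mean was 1402 ± 59.6 in WT CSPG and 1277 ± 52.9 in KO CSPG (SD, n = 4), a log2 fold change of -0.13 ± 0.04 (SE; 95% interval -0.22 to -0.05; limma, adjusted p = 0.0745). Without WT CSPG replicate A, its lowest WT CSPG value, *Sc5d* passed (log2 fold change -0.16, limma adjusted p = 0.0424). Leaving out that value widens the difference by itself. Without each other library *Sc5d* did not pass (limma, adjusted p from 0.0512 to 0.224).

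Single libraries were low or high for many of the sterol enzymes at once. KO CSPG replicate B was the lowest KO CSPG library for 9 of the 14 enzymes (64.3%), against 24.7% of all genes tested. WT CSPG replicate C was the highest WT CSPG library for 9 of the 14 (64.3%), against 24.98% of all genes tested. The genes of an enzyme series share each library, so these counts describe 8 libraries and not 14 separate measurements.

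**Figure D3:**
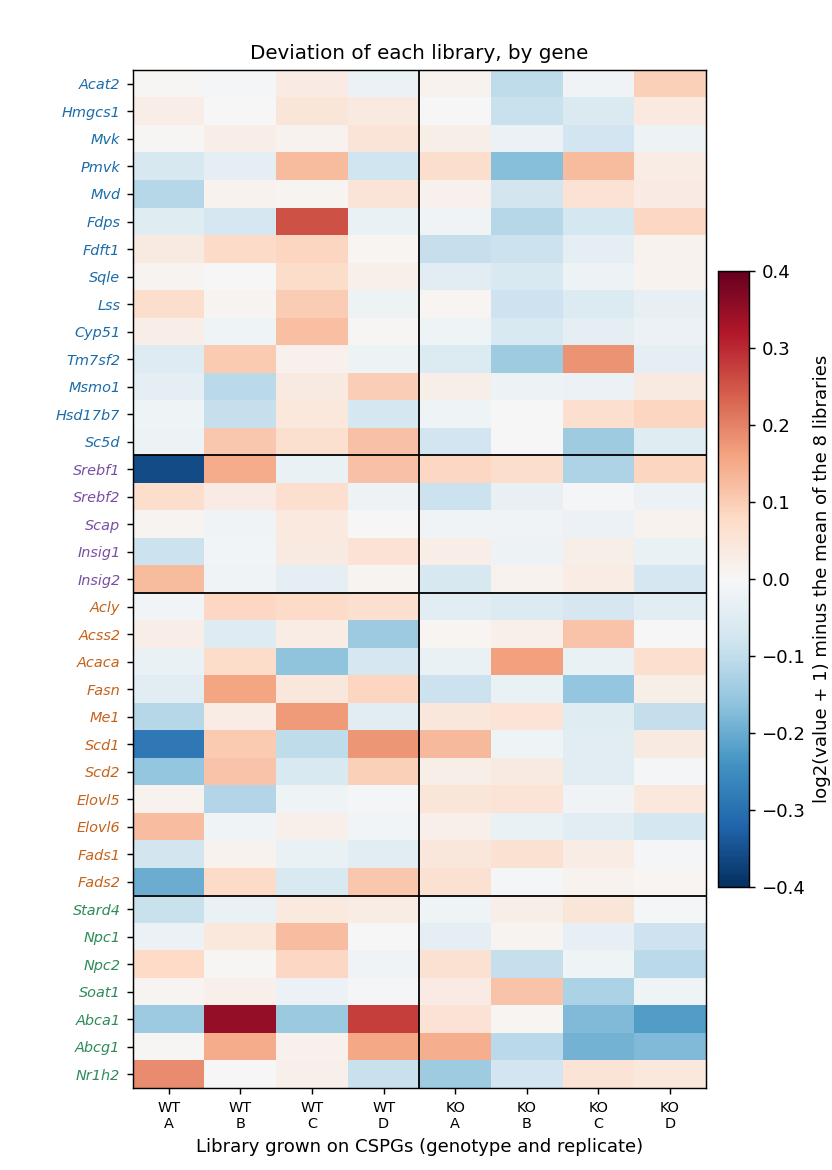
Deviation of each library from the mean of all 8, on the log2(value + 1) scale, for each member (rows, ordered by role, separated by lines) in each library (columns, WT CSPG left and KO CSPG right); red is above and blue below the mean. The strongest colours are single libraries, such as *Srebf1*, *Scd1* and *Fads2* low in WT CSPG replicate A and *Abca1* high in WT CSPG replicates B and D.

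The SREBP regulators had 3 of 5 log2 fold changes below 0. Their sum was lower in each KO CSPG library (6398, 6520, 6520 and 6538) than in each WT CSPG library (6630, 6721, 6791 and 6623). The means differed by -2.95%, given as a description with no test of the sum. Over all genes tested the mean of the summed values differed by -0.69%, and the sums of the other roles overlapped between genotypes. *Srebf2*, the master activator of sterol genes, carries most of the regulators' sum. It had 3900, 3805, 3890 and 3664 normalised counts in WT CSPG and 3502, 3641, 3693 and 3655 in KO CSPG. The highest KO CSPG value exceeded the lowest WT CSPG value, and the log2 fold change was -0.07 ± 0.03 (SE; limma, adjusted p = 0.211). *Srebf1*, which drives fatty acid genes, had 459.8, 654.1, 579.0 and 640.0 normalised counts in WT CSPG and 625.4, 619.1, 541.8 and 626.6 in KO CSPG. WT CSPG replicate A was the lowest library, and the log2 fold change of 0.06 ± 0.11 (SE) had an interval from -0.19 to 0.31. Without WT CSPG replicate A the log2 fold change was -0.05. *Scap*, the escort of both SREBPs, was the steadiest of all members, with 1007 to 1051 normalised counts over the 8 libraries and a log2 fold change of -0.02. Its coefficients of variation, 1.51% in WT CSPG and 1.18% in KO CSPG, were below the 3.16% and 3.08% from counting alone. *Insig1* and *Insig2*, which hold SCAP back, had log2 fold changes of 0.00 and -0.04.

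The fatty acid enzymes split, with 7 of 11 log2 fold changes above 0 and a median of 0.04. At an unadjusted p under 0.05 stood 2 lower and 1 higher, against 8.7% and 7.5% of all genes counted. *Acly*, which makes cytosolic acetyl-CoA from citrate and so feeds both sterol and fatty acid synthesis, had 3381, 3604, 3594 and 3557 normalised counts in WT CSPG and 3306, 3276, 3250 and 3301 in KO CSPG. All 4 KO CSPG values lay close together and below the lowest WT CSPG value. Their coefficient of variation of 0.79% was less than the 1.72% that counting alone gives, so their closeness is not a measure of the spread between cultures. The mean was 3534 ± 104 in WT CSPG and 3283 ± 26.0 in KO CSPG (SD, n = 4), a difference of -7.07% and a log2 fold change of -0.11 ± 0.03 (SE; 95% interval -0.17 to -0.04). *Acly* had the smallest adjusted p of all members (limma, 0.0538), just outside the threshold. It passed without WT CSPG replicate A, its lowest WT CSPG value, at a log2 fold change of -0.13 (limma, adjusted p = 0.0325). Leaving out that value widens the difference by itself, and *Acly* did not pass without any other single library.

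*Fasn*, the fatty acid synthase that builds palmitate, had 5086, 5858, 5420 and 5578 normalised counts in WT CSPG and 4944, 5160, 4722 and 5342 in KO CSPG. KO CSPG replicates B and D reached into the range of WT CSPG, and the log2 fold change was -0.12 ± 0.04 (SE; 95% interval -0.21 to -0.03; limma, adjusted p = 0.161). Without WT CSPG replicate A, the lowest WT CSPG library, *Fasn* passed as well (log2 fold change -0.16, limma adjusted p = 0.0355). Here too the omission widens the difference by itself, and *Fasn* did not pass without any other single library. *Acaca*, acetyl-CoA carboxylase, which supplies malonyl-CoA to *Fasn*, had the highest log2 fold change of the members, 0.09 ± 0.05 (SE; limma, adjusted p = 0.431). *Acss2*, which activates acetate, and *Me1*, the malic enzyme that supplies NADPH, had log2 fold changes of 0.07 and -0.02. Only 69.6% of the 50-base windows of *Acaca* and 71.7% of those of *Me1* are unique in the annotated transcripts, so reads of near copies may share their values.

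**Figure D4:**
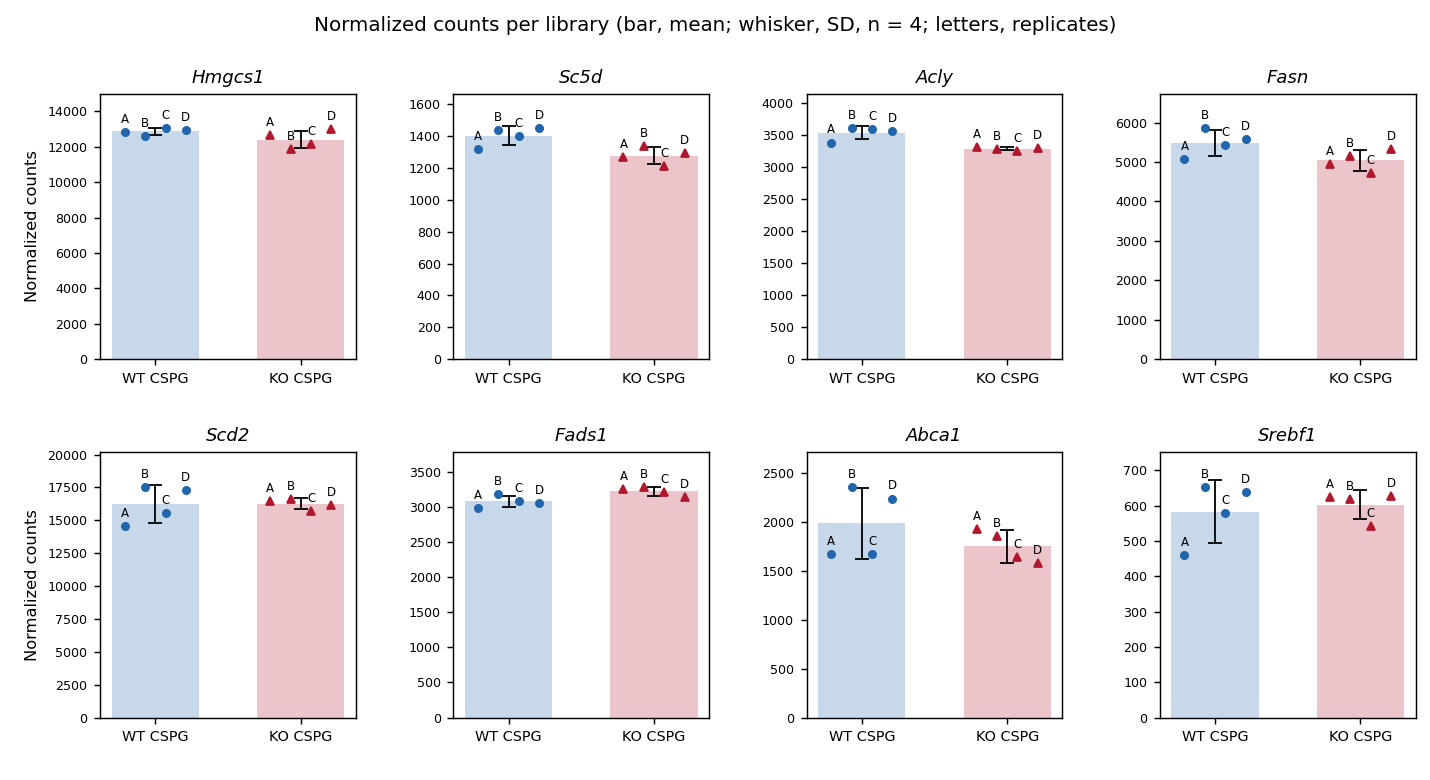
Normalised counts of 8 members in each library; points are WT CSPG (circles) and KO CSPG (triangles) replicates with their letters, bars the mean and whiskers the SD (n = 4), and each axis starts at 0. *Acly* separates the genotypes (lowest WT CSPG 3381, highest KO CSPG 3306), *Sc5d* nearly so, and in *Scd2*, *Srebf1* and *Abca1* the spread among WT CSPG libraries exceeds the difference of the means.

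No desaturase or elongase passed the test. *Scd2*, the main stearoyl-CoA desaturase of the brain, had 14568, 17558, 15568 and 17338 normalised counts in WT CSPG and 16485, 16650, 15714 and 16186 in KO CSPG. The KO CSPG libraries lay inside the WT CSPG range, with a log2 fold change of 0.00 (95% interval -0.14 to 0.15). Its neighbour *Scd1*, on the same stretch of chromosome 19, had 896.5, 1176, 1020 and 1238 normalised counts in WT CSPG and 1198, 1083, 1061 and 1122 in KO CSPG. As for *Scd2*, WT CSPG replicates A and C were the lower and B and D the higher of their group. *Fads2*, the delta-6 desaturase of polyunsaturated fatty acids, had 2513, 3043, 2764 and 3108 normalised counts in WT CSPG and 3008, 2869, 2910 and 2898 in KO CSPG, with the same order of low and high WT CSPG libraries. *Fads1*, the delta-5 desaturase, had 2991, 3177, 3091 and 3055 in WT CSPG and 3252, 3288, 3215 and 3142 in KO CSPG. It was the only member at an unadjusted p under 0.05 that was higher in KO CSPG, with a log2 fold change of 0.07 ± 0.03 (SE; limma, adjusted p = 0.272) and with KO CSPG replicate D inside the WT CSPG range. *Elovl5*, which lengthens polyunsaturated chains, and *Elovl6*, which lengthens palmitate, had log2 fold changes of 0.07 and -0.06.

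WT CSPG replicate A was the lowest WT CSPG library for 7 of the 11 fatty acid enzymes and for 16 of all 37 members (43.2%), against 25.5% of all genes tested. Astrocyte markers were also lowest there, 7 of 9 of them, with a summed level of 39691 normalised counts in replicate A against 46599 to 48540 in the other WT CSPG libraries and 46171 to 51189 in KO CSPG. The summed fatty acid enzymes were 34946 in WT CSPG replicate A, 36835 to 39663 in the other WT CSPG libraries and 36135 to 37807 in KO CSPG. *Scd2* carries the largest part of that sum. It had 14568 in WT CSPG replicate A, 15568 to 17558 in the other WT CSPG libraries and 15714 to 16650 in KO CSPG. The part of astrocytes in these values was not tested, and in such bulk libraries fewer cells of a type and less RNA per cell cannot be told apart. Oligodendrocyte lineage markers were higher in KO CSPG, 1979 to 2136 against 1317 to 1651 in summed normalised counts, with 2 of the 9 in the table passing the test (*Olig1* at a log2 fold change of 0.59 and *Olig2* at 0.79), 9 of 9 log2 fold changes above 0 and *Mag* without a row. Neuron markers summed to 91286 to 97336 in WT CSPG and 90076 to 93098 in KO CSPG, with 1 of 10 passing (*Neurod6*, lower at -0.19). Of 6 microglial, 5 fibroblast, 3 mural and 3 choroid plexus markers with a row, 0 passed in limma. At an unadjusted p under 0.05 stood 3 microglial (all higher in KO CSPG), 1 fibroblast (lower), 1 mural (higher) and 0 choroid plexus markers, against 16.2% of all genes counted. *P2ry12*, *Aif1*, *Tmem119* and *Itgam* had no row. No endothelial marker listed had a row (*Pecam1*, *Cldn5*, *Cdh5*, *Flt1* and *Tek*), and the mural markers with a row were *Pdgfrb*, *Rgs5* and *Acta2*. All 6 microglial and all 3 mural log2 fold changes were above 0, with sums of 1939 to 2330 normalised counts in WT CSPG and 2111 to 2519 in KO CSPG for microglial markers, and of 371.4 to 463.7 and 475.4 to 592.1 for mural markers. Of the 9 astrocyte markers 6 were above 0 and 0 passed, with 2 higher in KO CSPG at an unadjusted p under 0.05, and the mean of their sum differed by 7.15%. The part of these cell types in the members' values was not tested. The 4 Y-linked genes in the table were all lower in KO CSPG, by log2 fold changes of -0.85 to -0.67, so the share of male cells and the genotype cannot be told apart.

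**Figure D5:**
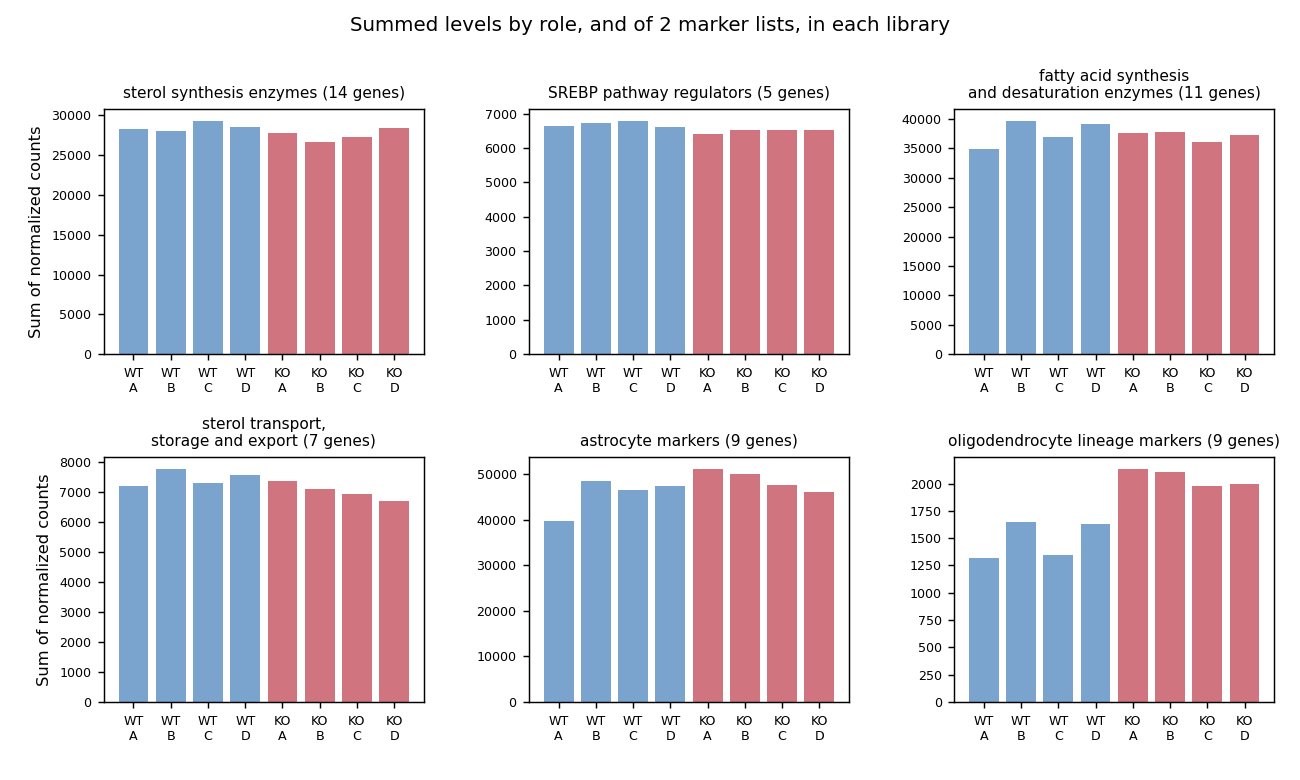
Summed normalised counts of the 4 roles and of the astrocyte and oligodendrocyte lineage markers in each library (blue WT CSPG, red KO CSPG, replicates A to D; each axis starts at 0). The regulator sums of KO CSPG (up to 6538) stay below those of WT CSPG (from 6623), the astrocyte sum is lowest in WT CSPG replicate A, and oligodendrocyte lineage sums are higher in all KO CSPG libraries.

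Of the transport, storage and export genes 5 of 7 log2 fold changes were below 0, with a median of -0.07. Their summed level was 7215, 7777, 7289 and 7583 normalised counts in WT CSPG and 7381, 7100, 6927 and 6699 in KO CSPG, where KO CSPG replicate A lay within the WT CSPG range. *Npc2*, which hands cholesterol to NPC1 inside lysosomes, had 2917, 2771, 2928 and 2734 normalised counts in WT CSPG and 2880, 2592, 2732 and 2563 in KO CSPG. The groups overlapped through KO CSPG replicate A, and the log2 fold change was -0.08 ± 0.04 (SE; limma, adjusted p = 0.3002). *Npc1*, the lysosomal exporter, had a log2 fold change of -0.07, *Stard4*, a carrier of sterol between membranes, one of 0.02, and *Soat1*, which esterifies cholesterol for storage, one of 0.00.

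The export pump *Abca1* was the most variable member, with 1673, 2361, 1671 and 2240 normalised counts in WT CSPG and 1928, 1860, 1639 and 1583 in KO CSPG. WT CSPG replicates B and D were high and replicates A and C level with the lowest KO CSPG libraries, so the log2 fold change of -0.17 ± 0.15 (SE) is within the spread between libraries. The choroid plexus markers *Ttr*, *Enpp2* and *Sostdc1* also summed highest in WT CSPG replicates B (1283) and D (3999), against 162 to 574 in the other WT CSPG libraries and 209 to 526 in KO CSPG, and their part in the level of *Abca1* was not tested. *Abcg1*, which passes sterol on to lipoproteins, had a log2 fold change of -0.16 ± 0.09 (SE; limma, adjusted p = 0.416), and *Nr1h2*, the LXR beta receptor that acts on both pumps, one of -0.06.

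Another 84 genes of sterol and fatty acid metabolism were counted beside the members, of which 75 were in the table and 0 passed in limma. At an unadjusted p under 0.05 stood 12 of the 75 (5 higher and 7 lower in KO CSPG), near the share of all genes counted, 16.2% (7.5% higher and 8.7% lower). They comprised 8 further sterol synthesis and turnover genes, 23 uptake and transport genes, 7 genes of SREBP processing, 24 of fatty acid synthesis and activation and 13 of fatty acid oxidation. Closest to the threshold came *Thrsp*, a regulator of lipogenesis, with 471.2, 454.8, 466.5 and 444.3 normalised counts in WT CSPG and 529.4, 537.1, 539.8 and 486.3 in KO CSPG. The groups did not overlap, at a log2 fold change of 0.19 ± 0.05 (SE; limma, adjusted p = 0.0508). *Vldlr*, a lipoprotein and Reelin receptor, followed with a log2 fold change of -0.12 ± 0.04 (SE; limma, adjusted p = 0.0853).

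For 28 of the 37 members at least 95% of the 50-base windows of the annotated transcripts were found in that gene alone, and the other 9 had fewer. Besides *Acaca*, *Me1* and *Fdft1*, the values of *Acat2* (60.9% unique windows), *Fdps* (73.8%), *Hmgcs1* (88.4%), *Scap* (90.04%), *Tm7sf2* (90.1%) and *Acss2* (93.9%) may hold or lack reads of near copies or overlapping genes. The overlapping gene lies on the same strand for *Fdps* (26.7% of exon bases, *Gm43738*) and *Tm7sf2* (12.1%, *Vps51*), and on the opposite strand for *Scap* (13.2%, *5830462I19Rik*), *Hmgcs1* (12.1%, *Gm48342*) and *Acss2* (9.12%, *Acss2os*, *Ggt7* and *Gss*). For *Hmgcs1* (3233 bases in the table, 4594 in GENCODE M21) and *Tm7sf2* (3484 and 4403) it is not known whether the overlapped bases were counted.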

How the data were processed

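Poly-A RNA of the cultures was sequenced at a facility as single reads, and the authors used DESeq2 on the Galaxy platform. Per the labels the genome build was mm10, and the aligner, the counting program and its strand setting are not given in the sources used here. The authors deposited a normalised signal, reads per gene scaled by the size factor of the library, although the columns are named counts. They deposited a gene length as well, used here for levels per kb, and their own fold changes with standard errors, test scores and p-values, which were not used. No gene in the table has a mean under 40.7, so lower genes, *Nr1h3* possibly among them, were removed before deposit. Of the columns per sample 0 were left unused. Table starts count from 0 and are given from 1 here.

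The log2(value + 1) of each value entered a fit for KO CSPG against WT CSPG with limma 3.58.1 in R 4.3.3 (moderated variances, trend and robust), with Benjamini-Hochberg adjustment over 12012 genes. A gene was called at an adjusted p under 0.05; 459 sex-chromosomal genes and pseudogenes took part in the fit and stayed out of all counts of calls, which leaves 11553. Fold changes on this scale understate the change of low genes. Intervals are 95% intervals of the fit. The study calls the libraries biological replicates. The median library had 10544988.5 reads over the table for WT CSPG and 11265741.5 for KO CSPG, which put the counting error of most members at a few percent. Models for raw counts had been listed as alternatives, but were not run, because the deposited unit is a normalised value and the recovered reads could not be established as counts by an independent source. The reads printed here are each value divided by the library's value of 1 read, which gave whole numbers within 1e-06 of a read for every gene. The replicate letters are not said to pair the libraries, so the main fit has no block. The deviations of libraries with one letter had correlations of -0.07, 0.10, 0.27 and -0.01 for A to D. Correlations between different letters were not computed, so these values cannot decide whether the letters pair libraries.

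The members and all lists were chosen with earlier results of these data known. Named are all members, *Fibcd1*, called genes of the other lists, and in full the 8 members with the highest level per kb; *Sc5d*, *Fasn*, *Fdft1*, *Abca1*, *Srebf1*, *Scd1*, *Thrsp* and *Vldlr* were added once their values had been seen. The settings varied were the pseudocount (0.1 or 10), a minimum mean of 100, TMM or upper-quartile scaling, no trend, no robust prior, a replicate block, summed Y-linked values as a covariate, and each library left out.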

Additional observations from a re-analysis of the deposited data

Results flagged for a closer look

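Of 76 groups of 4 libraries examined, those of the members and *Fibcd1*, 4 held 1 library far from the others, where chance gives about 1 in 20 groups, or 3.8. *Fdps*, the farnesyl diphosphate synthase, had 187.2 normalised counts in WT CSPG replicate C against 149.4 to 153.9 in the other WT CSPG libraries. *Srebf1* had 541.8 in KO CSPG replicate C against 619.1 to 626.6, and *Acss2*, which activates acetate, had 367.0 in the same library against 339.4 to 344.1. *Fibcd1* itself had 182.4 in WT CSPG replicate D against 54.3 to 70.4.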

How the results depend on the processing

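No called member reversed, since 0 were called, and 0 members were called under 7 of the 9 alternatives that keep all libraries. With a mean of at least 100, 1 member was called (*Acly*, adjusted p = 0.04999). With a replicate block 3 members were called (*Sc5d* at 0.0470, *Acly* at 0.0441 and *Fasn* at 0.0241), although the letters are not said to pair the libraries. Leaving out 1 library at a time gave 0 to 3 called members, with 3 without WT CSPG replicate A and 0 without any other library. Of the other pathway genes 1 was called (*Thrsp*) with a mean of at least 100, with upper-quartile scaling and with the replicate block, and 0 to 1 when 1 library was left out (*Thrsp* without KO CSPG replicate D, *Vldlr* without KO CSPG replicate B). Over all 17 alternatives the log2 fold change stayed between -0.18 and -0.09 for *Acly*, -0.37 and -0.09 for *Fasn* and -0.37 and -0.11 for *Sc5d*, with adjusted p from 0.0325 to 0.766, 0.0241 to 0.482 and 0.0424 to 0.482. For *Sc5d* the bounds of -0.37 and 0.482 came from the fit with the Y-linked covariate. The sign of the log2 fold change turned under at least 1 alternative for 24 members, none called under any, and for 2 members under another scaling. With the Y-linked covariate it turned for 19 members. Under the other alternatives it turned for 14, whose log2 fold changes in the main fit were at most 0.06 in size. The summed Y-linked values, of whose variance genotype explains 91.2%, raised the median standard error of the members from 0.047 to 0.152. Calls over all genes went from 327 to 73 without the trend, to 404 with the replicate block, to 1 with the Y-linked covariate, and to between 177 and 550 without 1 library. The causes were not tested. Models for counts, listed among the alternatives, were not run. Counting error and the 4 libraries a group limit the precision to the intervals given.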
